A study of Mus musculus with 6 samples.

Results

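The control state of the mouse embryonic stem cell line J1 was described from the 2 arrays labelled shNT, out of 6 arrays in the series. These cells carried pLKO.1, a lentiviral vector, with a hairpin that targets no gene, and the labels give their genotype as wild type. The other 4 arrays, 2 for each hairpin against Jmjd1c (shJmjd1c#3 and shJmjd1c#4), were used only to see whether differences between the control arrays recurred between same-numbered arrays, and no group was compared with another. All groups had been infected and then selected for 2 days (puromycin, 1.5 ug/ml), after which the cells were replated and grown for 4 more days on gelatin in 15% serum with leukemia inhibitory factor (LIF) at 1000 U/ml. The control is therefore a pool of infected and drug-selected cells, and uninfected cells were not analysed here. Each array received 6 ug of total RNA from 1 of the biological duplicates, and the number of arrays limits the precision. With 2 arrays in the group, levels are given as 2 values, replicate 1 and then replicate 2, with no test.

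Embryonic stem cells are derived from the inner cell mass of the blastocyst and can form all tissues of the embryo. A network of transcription factors around Pou5f1, Sox2 and Nanog sustains this state, and LIF acts on it through the receptor pair Lifr and Il6st and the transcription factor Stat3. Serum supplies BMP signals that induce Id genes, while FGF signalling through ERK moves cells toward the formative epiblast, the stage from which germ layers arise. Cultures in serum and LIF are known to hold cells at different points along this path.

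The values are MAS5 signals, a linear measure of fluorescence scaled so that the middle 96% of probe sets has the same average on every array. Each gene was represented by its brightest probe set, which gave 18193 genes. A gene was called bright when it reached the 90th percentile of probe sets on both control arrays (a signal of 1723 on replicate 1 and 1700 on replicate 2), near background when it lay under the 40th percentile on both (44.4 and 42.3), and mid-range when it lay above the 40th percentile on both without being bright. Genes on different sides of the 40th percentile were called split. By this rule 2707 genes (14.9%) were bright, 9125 mid-range, 1742 split and 4619 (25.4%) near background. The median gene read 185 and 174. A bacterial control transcript that mouse RNA does not contain read at most 8.90 and 5.62, so the near-background band also holds signals above this control. Because probe sets differ in how well they bind, a higher signal for 1 gene than for another does not by itself show more transcript. In bulk RNA, fewer cells that express a gene and less RNA per cell cannot be told apart.

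The 4 genes that define the cell type were all bright. Zfp42, a zinc finger protein typical of undifferentiated stem cells, read 15057 and 17165 (mean 16111 ± 1490, SD, n = 2). Sox2 read 16069 and 15944 (mean 16007 ± 88.2, SD, n = 2), and its arrays lay closest together among the 4. Pou5f1 read 9069 and 11587 (mean 10328 ± 1781, SD, n = 2), and Nanog read 7434 and 11375 (mean 9404 ± 2787, SD, n = 2). Nanog was thus the member with the widest spread, and its lower array still stood far above the bright cutoff. All 4 markers of the labelled cell type were thus present on both arrays.

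The bases ahead of these 4 genes are shown because their sequence differs in a motif that POU family proteins are known to bind. Each is the 250 bases before a RefSeq start site, 5′ to 3′, in build GRCm38.p6, with TTTGCAT, or ATGCAAA where it lies on the other strand, in capitals. Nanog is at chr6:122707239-122707488 on the plus strand, Sox2 at chr3:34649745-34649994 on the plus strand, Zfp42 at chr8:43307010-43307259 on the minus strand and Pou5f1 at chr17:35505782-35506031 on the plus strand. For Nanog and Pou5f1 the table holds 2 start sites, of which 1 is shown.
Nanog: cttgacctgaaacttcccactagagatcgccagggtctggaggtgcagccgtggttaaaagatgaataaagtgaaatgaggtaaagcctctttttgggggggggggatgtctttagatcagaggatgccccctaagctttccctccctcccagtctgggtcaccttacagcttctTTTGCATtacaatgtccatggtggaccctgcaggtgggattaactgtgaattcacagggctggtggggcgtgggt
Sox2: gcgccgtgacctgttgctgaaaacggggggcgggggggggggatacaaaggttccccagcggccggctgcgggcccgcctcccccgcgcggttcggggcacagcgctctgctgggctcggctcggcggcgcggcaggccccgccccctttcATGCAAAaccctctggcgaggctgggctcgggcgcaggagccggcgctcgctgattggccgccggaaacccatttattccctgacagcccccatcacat
Zfp42: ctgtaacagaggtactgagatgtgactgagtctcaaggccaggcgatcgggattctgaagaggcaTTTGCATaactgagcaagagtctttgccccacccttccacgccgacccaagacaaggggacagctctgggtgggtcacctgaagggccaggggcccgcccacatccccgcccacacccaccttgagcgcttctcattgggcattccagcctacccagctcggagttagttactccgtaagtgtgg
Pou5f1: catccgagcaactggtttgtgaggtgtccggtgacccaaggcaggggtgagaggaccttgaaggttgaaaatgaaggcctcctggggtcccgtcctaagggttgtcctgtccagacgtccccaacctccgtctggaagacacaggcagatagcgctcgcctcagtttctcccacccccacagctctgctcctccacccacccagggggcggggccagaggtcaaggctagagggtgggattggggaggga
The match lay 75 bases before the start site in Nanog, 99 in Sox2 and 185 in Zfp42, and neither window of Pou5f1 held it. A window of 300 bases, which adds 50 bases after the start, held these letters on either strand in 3 of the 4 genes, against 4.56% of the 14452 genes with a window. Among 32 other pluripotency genes, 19 had a window and 0 of these held the letters. A match is a description of the sequence and does not show that a protein is bound there.

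Ribosomal protein genes were the brightest class. Of 49 on the array, 43 were bright, and their median was 25705 on replicate 1 and 33843 on replicate 2. They supplied 36 of the 100 brightest genes and 13 of the brightest 15, led by Rps29 at 40792 and 51742. Rpl13a read 36101 and 48324, Rps20 38220 and 45197, and Rps18 35673 and 47687. The remaining brightest genes of that order were Rpl38, Rps28, Rps4x, Rpsa, Rps3a1, Npm1, Rplp2, Rps10, Hspa8, Rpl22 and Rpl4. Npm1, a nucleolar protein of ribosome assembly, read 31711 and 43615, and Hspa8, the constitutive heat shock chaperone, read 33462 and 40681. These 2 were the only members of the 15 that are not ribosomal proteins. All 15 genes read higher on replicate 2, by 0.24 to 0.61 on the log2(signal + 16) scale. The class also shows the limit of single probe sets. Rps16, a core ribosomal protein, read 1.65 and 12.1 and was near background. Only 15 ribosomal genes stayed bright when probe sets with names ending in _x_at, _s_at or _a_at were left out. That setting also drops any gene with no other probe set.

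**Figure D1:**
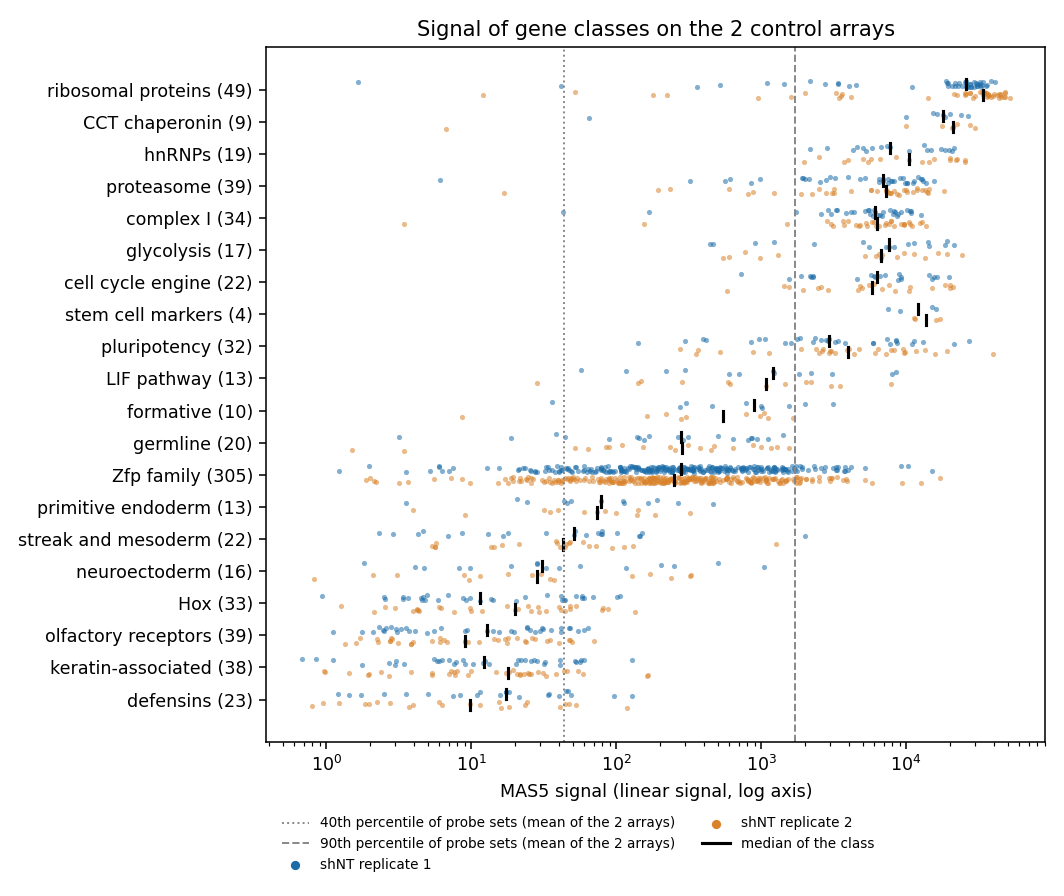
MAS5 signal on a log axis of every measured member of 20 gene classes (number of genes in brackets) on control replicate 1 (blue) and replicate 2 (orange), with the median of each class as a black bar and the 40th and 90th percentiles of probe sets as vertical lines. Ribosomal proteins sit at the right with medians of 25705 and 33843, and olfactory receptors, keratin-associated proteins and defensins sit left of the 40th percentile line.

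Other machinery of protein synthesis, folding and turnover was bright as well. Of 12 translation factors 10 were bright, with Eef1a1, which brings aminoacyl-tRNA to the ribosome, at 29734 and 38943. Its tissue-restricted relative Eef1a2 read 249 and 262. All 11 chaperones measured were bright, and so were 8 of 9 genes of the cytosolic chaperonin, which folds actin and tubulin. The exception in that list was Cct6b, a relative of Cct6a known from testis, at 65.1 and 6.69 against 19991 and 22236 for Cct6a. All 19 hnRNP genes, which encode RNA-binding proteins of splicing and export, were bright, as were 32 of 39 proteasome genes. The immunoproteasome subunits Psmb8 and Psmb9 read 608 and 193, and 324 and 235, and Psmb11, a thymus subunit, was near background at 6.11 and 16.9. Constitutive members of these complexes were thus bright while their tissue-restricted relatives were mid-range, split or near background.

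Genes of energy metabolism were also high. In complex I of the respiratory chain 31 of 34 genes were bright, and among ATP synthase and cytochrome oxidase genes 25 of 32. In glycolysis 12 of 17 were bright, and 6 were when probe sets with names ending in _x_at, _s_at or _a_at were left out. The glucose transporter Slc2a3 read 19070 and 24182, the transporter Slc2a1 21359 and 16619, and the glycolytic kinase Pgk1 18388 and 19015. The hexokinase Hk2 read 7632 and 6213 against 905 and 768 for Hk1, and the lactate dehydrogenase Ldha read 14231 and 11254. The muscle forms Eno3 (442 and 601) and Pfkm (466 and 542) were mid-range. Serine and one-carbon genes were bright in 8 of 9 cases, with Psat1, an enzyme of serine synthesis, at 7445 and 9859, and Phgdh, which catalyses the step before it, at 7170 and 9640.

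The cell cycle engine was bright in 19 of 22 genes. Top2a, which untangles replicated DNA, read 19670 and 20117, the replicative helicase subunit Mcm7 16402 and 21014, and the sliding clamp Pcna 15578 and 18654. Among cyclins that drive the G1 phase, Ccnd1 read 2551 and 2881, Ccnd3 1119 and 1080, Ccnd2 362 and 270, Ccne1 2207 and 2602, and Ccne2 727 and 584. Only Ccnd1 and Ccne1 of these were bright. All 7 inhibitors of cyclin-dependent kinases were mid-range, from Cdkn1a at 1938 and 1561 down to Cdkn2c at 104 and 99.7. The pocket proteins that restrain S phase entry were mid-range too, with Rb1 at 1194 and 756, Rbl1 at 917 and 843 and Rbl2 at 311 and 320. Rb1 and Rbl1 changed places between the arrays, so their order was not larger than the spread.

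Among 32 further pluripotency genes, 23 were bright, 9 mid-range and 0 near background, against 14.9% bright and 25.4% near background over all genes. With the median over a gene's probe sets 15 of them were bright, and the bright count over all genes went from 2707 to 1632. Dppa5a, an RNA-binding protein of early embryos, was the brightest at 27046 and 39579, followed by the Nodal co-receptor Tdgf1 at 21473 and 19018. Sall4, a zinc finger partner of Pou5f1, read 8527 and 9670, and the Krüppel-like factors Klf2 and Klf4 read 8439 and 9887, and 7383 and 8209. The orphan receptor Esrrb read 2958 and 4691 and Tfcp2l1, a transcription factor of the naive state, 1839 and 3896. At the lower end Prdm14 read 967 and 1123, Foxd3 400 and 365, Zfp57 300 and 353, and the adhesion molecule Pecam1 142 and 275. The group therefore ran from the brightest genes of the array to the middle of the mid-range.

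Of 10 genes of the formative epiblast, 9 were mid-range and 1, Fgf5, was near background at 36.1 and 8.63. Otx2, a homeobox factor that drives exit from the naive state, read 3112 and 1112. The zinc finger factor Zic5 read 2019 and 1663, the POU factor Pou3f1 1548 and 784, and Lef1, a factor of Wnt-responsive transcription, 1017 and 221. By their brightest probe sets, Otx2, Pou3f1 and Lef1 thus lay well above background on both arrays. The other probe set of Lef1 had a mean of only 34.8, and that of Pou3f1 a mean of 112. Between the arrays Otx2 and Lef1 differed by more than 1 unit on the log2(signal + 16) scale and Pou3f1 by 0.97.

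In the LIF pathway 5 of 13 genes were bright and 7 mid-range. The receptor subunit Lifr read 2212 and 2219 and its partner Il6st 1226 and 1452. The kinases Jak1 and Jak2 read 598 and 592, and 298 and 284, and Stat3 read 1212 and 1074. These upstream members differed little between arrays. The feedback inhibitor Socs3, a direct target of Stat3, read 8470 and 3514, the widest gap of the pathway's bright genes, and its relative Socs1 was split at 57.3 and 28.3. The kinases Pim1 and Pim3, also induced by this pathway, read 3092 and 3041, and 8017 and 7801. The cytokine Lif itself read 116 and 147.

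Of 10 BMP and Nodal receptors, 1 was bright and 8 mid-range. Bmpr1a, a type I BMP receptor, read 1933 and 2115 and Bmpr1b 176 and 143, while the TGF-beta receptor Tgfbr2 read 76.5 and 72.4. Among the signal transducers Smad4, the common partner, read 5489 and 4371, Smad1 1958 and 1793, Smad5 470 and 433, Smad2 527 and 717, Smad3 573 and 540, and Smad9 3.65 and 2.15. The inhibitory members Smad7 and Smad6 read 1073 and 1029, and 234 and 195. Of the ligands, Nodal read 2888 and 3073 and Gdf3 2571 and 3039, and the Nodal antagonists Lefty1 and Lefty2 read 6564 and 4398, and 3254 and 2165. These 4 were the bright members among 14 ligands and antagonists. Bmp4 read 404 and 627, and Bmp2 was near background at 25.1 and 34.9. The 4 Id genes, targets of BMP signalling, were all mid-range, with Id1 at 2205 and 1568, Id2 at 1619 and 1531, Id3 at 425 and 788 and Id4 at 324 and 664.

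Fgf4, the FGF that stem cells make, read 3765 and 4012 and was the only bright gene among 22 FGF ligands, of which 11 were near background. The receptor Fgfr1 read 1224 and 1210, Fgfr2 301 and 220, Fgfr3 147 and 132 and Fgfr4 105 and 62.2, the same order on both arrays. Of 12 genes that respond to ERK, 5 were bright. Etv5, an ETS factor, read 9031 and 6920, the immediate early gene Egr1 4658 and 5039, the ERK phosphatase Dusp6 2753 and 2269, and the feedback inhibitor Spry2 2738 and 1878. Spry1 and Spry4 read 543 and 337, and 1046 and 914.

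For Wnt signalling, ligands were largely near background or split, while most receptors and transducers were mid-range. Of 19 Wnt ligands 0 were bright and 10 (52.6%) were near background, against 25.4% near background over all genes. Wnt4, the highest ligand by mean, read 119 and 168. Of 10 Frizzled receptors 8 were mid-range and 2 (20%) bright, against 14.9% bright over all genes. The bright receptors were Fzd7 at 3439 and 2211 and Fzd5 at 2664 and 2696. Beta-catenin, encoded by Ctnnb1 and also part of cell junctions, read 20550 and 23357. The repressor Tcf7l1, which limits the pluripotency network, read 2045 and 1524, against 177 and 274 for Tcf7l2. The feedback target Axin2 read 367 and 327.

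Related genes were set beside each other in 36 sets, each headed by its brightest member. To judge such ratios across probe sets, the brightest and second brightest probe sets of the same gene were compared for 7249 genes that were bright or mid-range. Their ratio had a median of 2.92, and in 10% of genes it passed 22.5. Jmjd1c is an example, with its 3 probe sets at 6060 and 5516, 368 and 373, and 198 and 273. Of 110 pairs made of a set's brightest member and another member, 108 kept their order on both arrays and 35 passed a ratio of 22.5 on both. The kept order is largely built in, because the brightest member was picked by its mean over these same arrays. In 10 of those 35 the other gene was near background, where the ratio has no reliable size. Where neither condition is met, the order is not read.

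DNA methylation enzymes were all bright or close to it. The de novo methyltransferase Dnmt3b read 14907 and 6387, Dnmt3a 2398 and 1518, the catalytically inactive cofactor Dnmt3l 3932 and 4331, and the maintenance enzyme Dnmt1 5281 and 5389. Dnmt3b thus fell near Dnmt1 on replicate 2 and well above it on replicate 1. Of the Tet dioxygenases, which oxidise methylcytosine, Tet1 read 9938 and 9268, Tet2 1901 and 2651, and Tet3 was near background at 4.90 and 33.3. Both bright Tet genes are known for their roles in stem cells, and Tet3 is the oocyte form.

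The Kdm3 family of H3K9 demethylases, to which the gene targeted in the other groups belongs, was bright in all 3 members. Jmjd1c read 6060 and 5516, Kdm3a 5595 and 5757, and Kdm3b 2103 and 2120. Jmjd1c was the higher on replicate 1 and Kdm3a on replicate 2, so their order was not larger than the spread. On the opposing side, the H3K9 methyltransferases Ehmt1 and Ehmt2 read 2480 and 2748, and 932 and 742, Setdb1 and Setdb2 1155 and 1182, and 493 and 420, and Suv39h2 1095 and 835. Among genes of the HP1 proteins that bind this mark, Cbx1 read 8479 and 8563, Cbx5 2452 and 2963 and Cbx3 151 and 108. Cbx3 was read from its only probe set, whereas Cbx1 and Cbx5 had 5 each, so its low signal does not by itself show less transcript.

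Polycomb repressive complex 2, which methylates H3K27, was bright in its core. Suz12 read 8851 and 10281, Eed 8365 and 10955, and the catalytic subunit Ezh2 6428 and 6486 against 751 and 528 for its relative Ezh1. The accessory subunits Jarid2 and Mtf2 read 8564 and 12714, and 8582 and 10993, while Phf1 and Phf19 read 173 and 141, and 145 and 96.1. In complex 1 the chromodomain subunit Cbx7 read 2342 and 2401, Cbx6 1688 and 1085, Cbx2 298 and 256 and Cbx8 93.0 and 43.5. Cbx7 is the form known to predominate in stem cells. Among Pcgf subunits, Pcgf6 read 3122 and 3138, Pcgf3 1983 and 1527, Pcgf5 1067 and 943, Bmi1 405 and 396, Pcgf2 121 and 215, and Pcgf1 87.5 and 115.

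The chromatin remodelling complex BAF changes subunits between stem cells and differentiated cells. Its ATPase Smarca4 read 3294 and 3727, and the alternative Smarca2 was split at 88.3 and 24.4, under the 40th percentile on replicate 2, so that no size is read from that array. Smarcc1 read 7296 and 6619 against 171 and 238 for Smarcc2, a ratio of 42.5 and 27.8. Actl6a read 6846 and 6604 while the neuronal form Actl6b was near background at 34.1 and 37.7. Of these 3 pairs only the Smarcc pair had both genes above the 40th percentile on both arrays, and its ratio passed 22.5 on each. Arid1a read 4449 and 4485 against 1457 and 928 for Arid1b, a ratio within the range of probe sets of 1 gene. Phf10 read 4391 and 4260, Dpf2 1416 and 1237, Dpf1 217 and 265 and Dpf3 91.5 and 46.0. Smarcd2 read 4496 and 3714, Smarcd1 161 and 173, and Smarcd3 125 and 134.

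**Figure D2:**
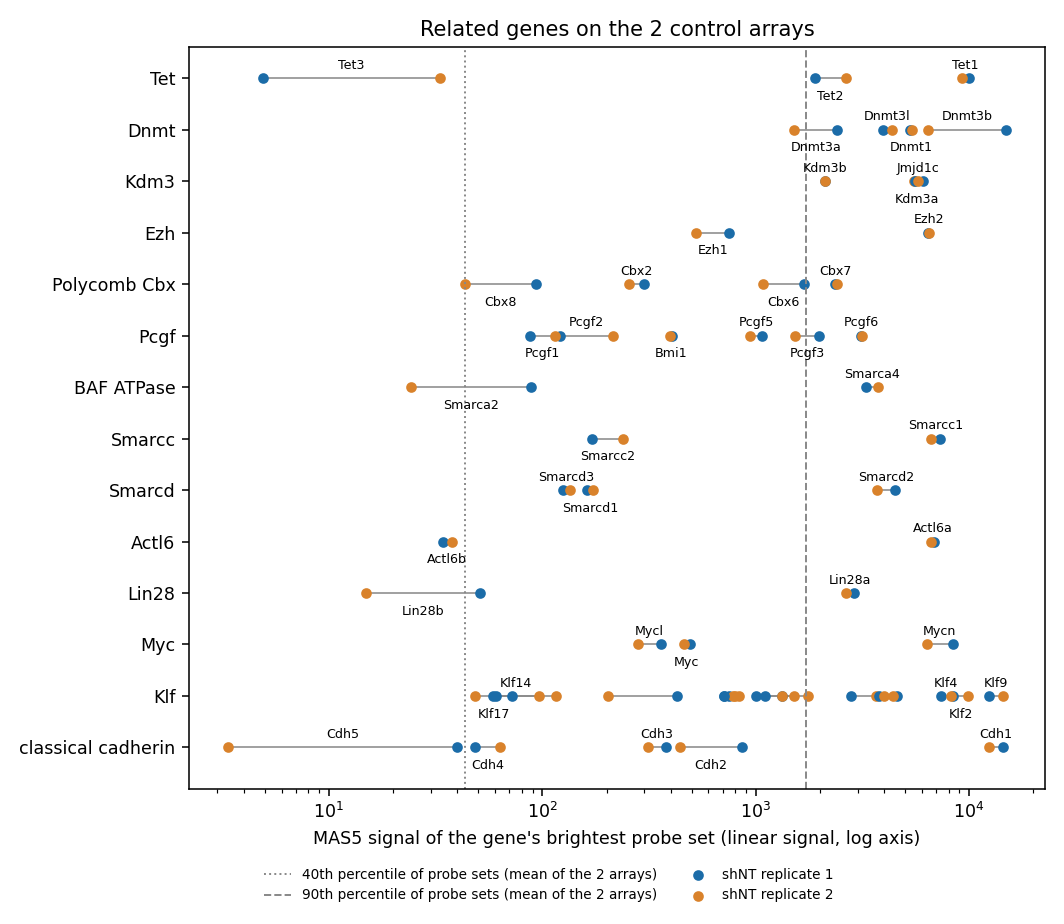
MAS5 signal on a log axis of the brightest probe set of each gene in 14 sets of related genes, with control replicate 1 in blue and replicate 2 in orange joined by a line, and the 40th and 90th percentiles of probe sets as vertical lines. In the Klf set only the outer genes are named, and Smarca4 at 3294 and 3727 stands right of the 90th percentile line while Smarca2 at 88.3 and 24.4 spans the 40th.

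Other sets with a bright leading gene are given in the same way. The let-7 inhibitor Lin28a read 2885 and 2642 and Lin28b was split at 51.3 and 14.9, under the 40th percentile on replicate 2. Mycn read 8357 and 6344, Myc 489 and 461 and Mycl 359 and 281, so that only the ratio to Mycl passed 22.5 on both arrays. Sox2 stood above its SoxB relatives Sox21 (237 and 510), Sox3 (243 and 152), Sox1 (117 and 129) and Sox14 (9.52 and 8.25). Pou5f1 read above Pou3f1, the next of 9 POU genes, by a ratio within 22.5, and 4 of the others were near background. Esrrb also read above Esrra (461 and 278) by a ratio within 22.5, and Esrrg was near background at 42.6 and 35.2. The epithelial cadherin Cdh1 read 14441 and 12329, the neural cadherin Cdh2 857 and 440, Cdh3 381 and 313, Cdh4 48.4 and 63.2 and the endothelial Cdh5 39.7 and 3.37. Of the 16 Klf genes measured 6 were bright, among them Klf9 at 12433 and 14389, Klf2 and Klf4, whose order is not read. Klf17, Klf14 and Klf1 were the dimmest, at 48.5 to 116 over both arrays, and the ratio of Klf9 to each passed 22.5 on both.

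In further families of regulators several members lay close together. Hdac2 read 5802 and 6199 and Hdac1 4780 and 4395, ahead of Hdac3 (1476 and 1271) and Hdac8 (57.6 and 105), and only the ratio to Hdac8 passed 22.5 on both arrays. Chd9 read 3041 and 2166, Chd1 1988 and 1897 and Chd4 1756 and 1860, while Chd3 and Chd5 read 134 and 182, and 155 and 111. The 4 methyl-CpG-binding genes measured were mid-range, with Mbd3 at 716 and 781. Of the Argonautes, which carry small RNAs, Ago2 read 2271 and 2283, Ago1 1207 and 1108, Ago3 290 and 189 and Ago4 56.4 and 48.8, with only the ratio of Ago2 to Ago4 past 22.5 on both. The microRNA processing enzymes Drosha and Dicer1 read 10335 and 7655, and 1549 and 1463.

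Markers of differentiated lineages were rarely bright, and their near-background share varied. Of 22 streak and mesoderm genes 0 were bright, 9 mid-range and 8 (36.4%) near background, not far from the 25.4% of all genes. Eomes, a T-box factor of the streak, read 146 and 113, Mixl1 was split at 6.91 and 72.2 and Gsc was near background at 2.31 and 16.3. The exception was Tcf15, known from the primed epiblast as well as from somites, at 1989 and 1267. Of 13 primitive endoderm genes, 8 were mid-range and 4 (30.8%) near background, close to the share of all genes, with Gata6 at 113 and 99.3, Gata4 at 45.5 and 74.1 and Sox17 at 79.0 and 59.8, all within the lower part of that band. Of 16 neuroectoderm genes 10 (62.5%) were near background, among them Olig2 at 1.82 and 2.09, while Sox1 read 117 and 129, Pax6 505 and 325 and Neurod1 1051 and 329. Of 8 trophectoderm genes only Tfap2c, which is also expressed in epiblast and germ cells, was bright at 1900 and 2364, and Cdx2 read 9.66 and 20.8.

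Markers of other cells that the culture could hold were examined in the same way. Of 11 feeder fibroblast genes 0 were bright, 4 mid-range, 3 split and 4 near background, with signals of 5.88 to 1910 on replicate 1 and 2.10 to 1685 on replicate 2. The matrix genes Dcn (10.9 and 11.7) and Lum (20.8 and 4.36) were near background, Col1a1 was split at 5.88 and 73.2, and Fstl1, which many cells express, read 1910 and 1685. Of 20 germline genes 16 were mid-range, with the synaptonemal complex gene Sycp3 at 1412 and 1284, Ddx4 at 844 and 883 and Dazl at 504 and 469. Among 12 mesenchymal genes Fn1 (9078 and 11138), Vim (4897 and 3066) and Sparc (2479 and 2371) were bright, and the transcription factor Snai1 was near background at 33.0 and 20.2. Of 19 interferon and innate immunity genes 14 were mid-range and 0 bright, with Irf1 at 2585 and 1100, and the interferon-induced Ifit3 and Mx1 were near background.

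On the sex chromosomes, Eif2s3y, a Y-linked translation factor gene, read 4274 and 2857 and Uty 601 and 320, while Kdm5d was near background at 25.8 and 4.55. Xist, the RNA that coats an inactive X chromosome, read 522 and 696. Among 18 imprinted genes 6 were bright, led by the maternally expressed RNA Meg3 at 10740 and 10746 and followed by Impact at 4736 and 5781, Grb10 at 3777 and 4380 and Rian at 3636 and 3554. Meg3 and Rian belong to the same imprinted cluster, which also holds the RNA Mirg, at 393 and 401.

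The near-background band held gene families of specialised tissues. Of 39 olfactory receptors 32 were near background and 0 bright, with medians of 12.9 and 9.12 on the 2 arrays. Vomeronasal and taste receptors (31 of 37), keratin-associated proteins of hair (29 of 38) and defensins (17 of 23) gave like shares. Of 33 Hox genes 21 were near background and 9 split, and Hoxa5, the highest by mean, read 101 and 135. In the Lhx, Dlx and sine oculis homeobox families 12 of 19 were near background, and the only one above the split band was Six4 at 1412 and 973. Liver genes (5 of 9), blood genes (8 of 10) and interleukins (19 of 31) followed, with albumin (Alb) at 1.59 and 26.4. All of these classes had a larger near-background share than the 25.4% of all genes, and members of each were also split between the arrays.

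Promoter sequence varied with the band. The ratio of observed to expected CpG dinucleotides in the 300-base window had a median of 0.84 in bright genes, 0.73 in mid-range, 0.43 in split and 0.28 in near-background genes, and 0.66 over all 14452 genes with a window. A window with a ratio of 0.6 or more was called CpG-rich. This held for 85.7% of bright genes and 19.9% of near-background genes, against 55.7% of all. TATAAA, on either strand, was found in 8.44% of bright, 18.5% of near-background and 11.5% of all genes. Classes with many near-background genes differed among themselves. Their shares cover every member with a window, whatever its band. None of the 29 olfactory receptor, 36 keratin-associated and 16 defensin windows was CpG-rich. By contrast, 78.6% of Lhx, Dlx and sine oculis genes, 71.4% of neuroectoderm genes and 73.3% of Wnt ligand genes were. Hox genes lay between, with 9 of 19 (47.4%) CpG-rich, under the 55.7% of all genes. In keratin-associated genes 80.6% of windows held TATAAA. In all, 698 near-background genes had a CpG-rich window. These shares describe the sequences and were not tested.

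Examples of each kind are printed to show this contrast, as the 250 bases before the RefSeq start site with every CG in capitals. Rpl13a is the brightest gene with a single window, at chr7:45128746-45128995 on the minus strand. Lhx1, a homeobox gene near background at 7.93 and 35.8, is at chr11:84525535-84525784 on the minus strand. It was picked for its CpG ratio, the highest among near-background Hox, Pax, neuroectoderm, Lhx, Dlx and sine oculis genes with a single window. Olfr558, an olfactory receptor near background at 1.78 and 2.75 and the lowest by mean, is at chr7:102702073-102702322 on the plus strand.
Rpl13a: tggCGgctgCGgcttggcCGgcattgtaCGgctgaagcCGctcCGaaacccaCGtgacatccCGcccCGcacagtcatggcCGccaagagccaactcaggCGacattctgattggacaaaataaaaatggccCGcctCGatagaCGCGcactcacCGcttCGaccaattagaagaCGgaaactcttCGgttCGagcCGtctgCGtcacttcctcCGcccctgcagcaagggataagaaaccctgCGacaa
Lhx1: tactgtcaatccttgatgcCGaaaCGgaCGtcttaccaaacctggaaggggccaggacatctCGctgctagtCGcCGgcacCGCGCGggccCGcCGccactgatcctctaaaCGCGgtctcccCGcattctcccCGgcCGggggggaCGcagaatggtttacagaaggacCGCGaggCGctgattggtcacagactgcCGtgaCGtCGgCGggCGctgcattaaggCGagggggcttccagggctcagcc
Olfr558: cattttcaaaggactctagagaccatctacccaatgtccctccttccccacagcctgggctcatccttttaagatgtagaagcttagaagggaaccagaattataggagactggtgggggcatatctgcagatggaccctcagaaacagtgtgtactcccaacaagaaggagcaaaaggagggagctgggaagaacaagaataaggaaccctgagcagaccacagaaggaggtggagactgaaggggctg
The stretches hold 24, 26 and 0 CG dinucleotides. The Rpl13a and Lhx1 stretches thus have similar CG counts, which for Lhx1 follows from the way it was picked. The olfactory receptor stretch has none.

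**Figure D3:**
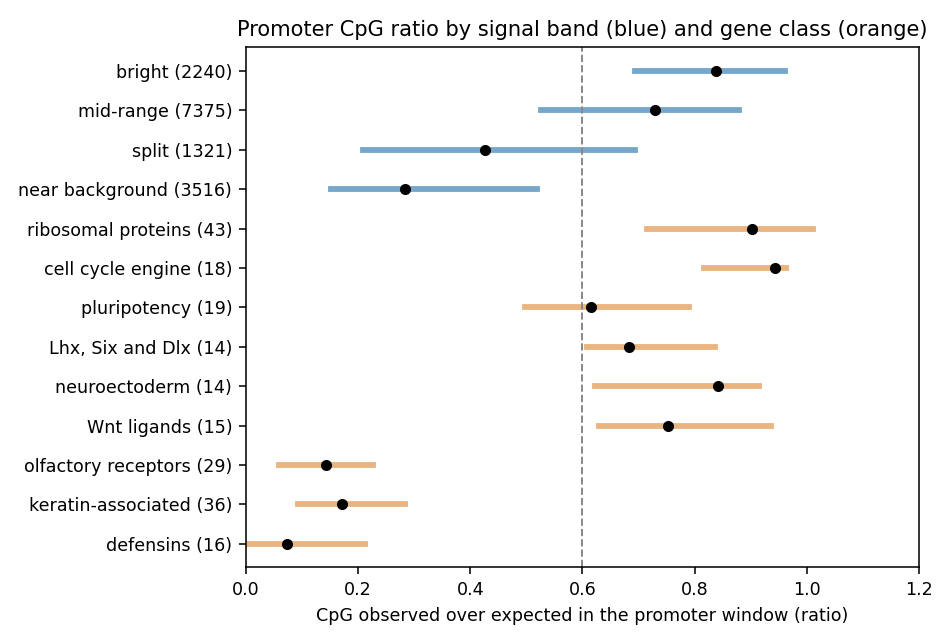
Ratio of observed to expected CpG in the promoter window by signal band (blue) and gene class (orange), with the median as a point, the quartiles as a bar, the number of genes with a window in brackets and a dashed line at 0.6. Medians run from 0.84 in bright to 0.28 in near-background genes, while the largely dim class of Lhx, Dlx and sine oculis homeobox genes lies above 0.6.

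The 2 control arrays were then compared with each other. Over all probe sets their log2(signal + 16) values correlated at r = 0.967, and at r = 0.980 over genes whose mean lay at or above the 40th percentile, the filter on dim genes used from here on. Both values run across genes and describe 1 pair of arrays. The absolute log2 difference had a median of 0.15 in bright genes, 0.25 in mid-range, 0.88 in split and 0.44 in near-background genes. By deciles of mean signal it fell from 0.86 in decile 2 to 0.15 in decile 10, and it was 0.26 in decile 1, where the constant of 16 compresses differences. Of 12704 genes past the filter, 141 (1.11%) were at least 2-fold higher on replicate 2 and 249 (1.96%) at least 2-fold lower. With median centring these counts were 180 and 189, and with quantile normalization 162 and 202, so the lean toward lower values depends on scaling. Of bright genes 1 was higher and 4 were lower by that margin.

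The largest differences past the filter involved dim genes. Pla2g4c, a phospholipase, read 17.01 and 197, Gapdhs, the sperm form of a glycolytic enzyme, 13.4 and 146, and Vgf, a secreted neuropeptide precursor, 11.8 and 128. Isg20, Shd, Ttll9, Sema6b, Ctrl, Apbb1ip and Mamdc4 completed the 10 largest in that direction, at 9.87 to 16.1 on replicate 1 and 96.3 to 118 on replicate 2. In the other direction Rtp4, an interferon-responsive gene, read 164 and 3.69, Hic1, a transcriptional repressor, 219 and 12.3, and Ppp1r3c, a glycogen-targeting subunit, 172 and 8.67. Ccdc180, Tubb4a, Oas1e, Crispld1, Srms, Rassf10 and Cnn1 followed, at 109 to 184 on replicate 1 and 6.48 to 26.04 on replicate 2. All of these crossed from the background range of 1 array to a low signal on the other.

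**Figure D4:**
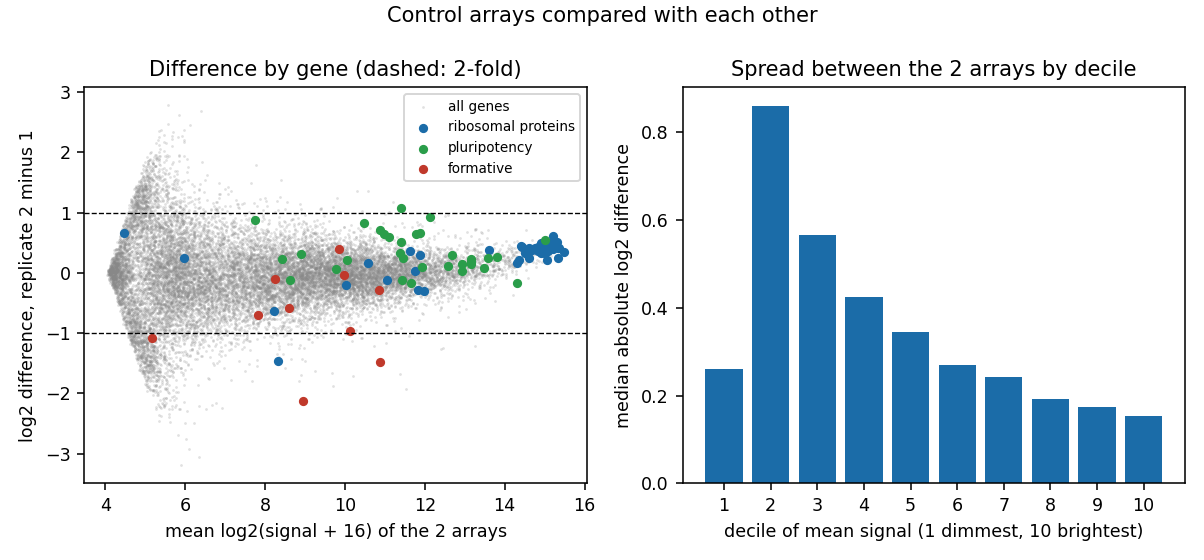
Left, log2(signal + 16) of control replicate 2 minus replicate 1 against its mean for every gene (grey), with ribosomal protein (blue), pluripotency (green) and formative (red) genes marked and dashed lines at 2-fold. Right, bars of the median absolute log2 difference in each decile of mean signal, which peak at 0.86 in decile 2 and end at 0.15 in decile 10.

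Some gene groups shifted together between the control arrays. The median log2 difference, replicate 2 minus replicate 1, was 0.24 over 32 pluripotency genes, of which 28 were higher on replicate 2, and -0.59 over 9 formative genes past the filter, of which 1 was higher. Over all genes past the filter it was -0.03. In ribosomal protein genes it was 0.37, but this became 0.01 with quantile normalization, which left the pluripotency median at 0.20 and the formative median at -0.56. The ribosomal offset was thus near 0 after quantile normalization, and the other 2 were not. Markers of several other cell types also read lower on replicate 2, but not of all. The median was -0.55 over 12 streak and mesoderm genes past the filter (1 higher), -0.33 over 10 primitive endoderm genes (2 higher), -0.37 over 6 neuroectoderm genes (1 higher) and -0.35 over 4 feeder fibroblast genes (1 higher). It was -0.28 over 15 interferon and innate immunity genes and -0.68 over 8 Wnt ligands, while 4 trophectoderm genes had 0.13. The median was 0.29 over 9 mesenchymal genes (6 higher), 0.38 over 4 pancreas and gut genes (3 higher) and 0.09 over 3 liver genes (3 higher). Over 18 germline genes it was -0.03 (9 higher). The part of these in the formative and pluripotency differences was not tested.

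The same question was put to the arrays of the other groups, which carry the same replicate numbers. In sh3 (shJmjd1c#3) and sh4 (shJmjd1c#4) the median difference was 0.10 and 0.18 for pluripotency genes and -0.51 and -0.59 for formative genes, in the same direction as in the controls. For the other markers it was -0.03 and -0.52 in streak and mesoderm, -0.26 and -0.50 in primitive endoderm, -0.38 and -0.22 in neuroectoderm, and -0.30 and -0.49 in interferon and innate immunity genes. It was -0.27 and -0.10 in feeder fibroblast genes, -0.07 and -0.50 in Wnt ligands and 0.02 and 0.46 in trophectoderm genes. Mesenchymal genes had 0.20 and -0.07, pancreas and gut genes 0.62 and 0.11, liver genes -0.21 and 0.50 and germline genes -0.09 and 0.17. Of the 141 genes 2-fold higher on control replicate 2, 94 (66.7%) were also higher on replicate 2 of sh3 and 95 (67.4%) of sh4, against 47.7% and 46.4% of all genes. Of the 249 that were lower, 190 (76.3%) and 185 (74.3%) were lower there too, against 52.3% and 53.6%. The numbers are given by the labels, and what arrays of 1 number share was not tested.

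The difference between numbers was tested with limma over all 6 arrays, with group as a term, so that 3 same-numbered pairs gave the estimate. Of 12682 genes 295 (2.33%) were higher and 301 (2.37%) lower on arrays numbered 2 at a Benjamini-Hochberg adjusted p of 0.05. With the intensity trend of the variance left out, limma called 0 genes, with 2164 at an unadjusted p under 0.05, so the calls rest on that trend. Without the control pair limma called 1187 genes, without the sh3 pair 464 and without the sh4 pair 893. Among pluripotency genes 9 of 32 were higher and 0 lower. Tfcp2l1 was higher by 0.92 on the log2 scale (SE 0.09, adjusted p = 0.000953 by limma) and in all 3 pairs, Nr0b1 by 0.78 (SE 0.10, adjusted p = 0.00212 by limma), and Tbx3, Esrrb, Klf2, Tcl1, Nr5a2, Jam2 and Dppa5a also passed. Of the 4 cell type markers Nanog was higher by 0.43 (SE 0.07, adjusted p = 0.00882 by limma) and Zfp42 by 0.25 (SE 0.06, adjusted p = 0.0344 by limma). With quantile normalization the calls of Zfp42, Dppa5a and Jam2 were lost (adjusted p = 0.236, 0.121 and 0.0512 by limma) and 7 pluripotency genes were higher and 1, Tdgf1, lower. Pou5f1 and Sox2 did not pass, with differences of 0.03 (SE 0.09) and -0.07 (SE 0.06), and that of Pou5f1 was -0.06 with quantile normalization and -0.13 without the control pair.

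Of 10 formative genes 5 were lower on arrays numbered 2 and 0 higher, against 2.37% lower and 2.33% higher over all genes tested. Lef1 was lower in all 3 pairs, with a log2 change between numbers of -1.83 (SE 0.17, adjusted p = 0.00075 by limma). Otx2 differed by -1.47 in the control pair, -0.86 in sh3 and -0.67 in sh4 (adjusted p = 0.00242 by limma), and Pou3f1 had a log2 change between numbers of -0.85 (SE 0.10, adjusted p = 0.002 by limma). Zic5 and Sall2 also passed, and the same number of 5 passed with quantile normalization. Both de novo methyltransferases were lower too, with a log2 change between numbers of -0.89 for Dnmt3b (SE 0.09, adjusted p = 0.000974 by limma) and -0.60 for Dnmt3a (SE 0.09, adjusted p = 0.00426 by limma). Lower values were also called for Socs3, with a log2 change between numbers of -0.94 (SE 0.10, adjusted p = 0.000953 by limma), the Nodal antagonist Lefty1 with -0.52 (SE 0.08, adjusted p = 0.00407 by limma) and the interferon regulatory factor Irf1 with -0.79 (SE 0.12, adjusted p = 0.00604 by limma). Neurod1 did not pass (adjusted p = 0.0674 by limma).

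The same direction was measured without the control arrays. In the limma fit on the sh3 and sh4 pairs alone, with 1 residual degree of freedom, 599 genes were higher and 588 lower. The variance of every gene in that fit was taken from the intensity trend. These genes held 560 of the 596 calls of the full fit, an overlap partly built in because the full fit uses the same sh3 and sh4 arrays. In the control pair, which the fit on the sh3 and sh4 pairs did not use, 514 of the 599 were higher, against 45.4% of all genes. There 489 of the 588 were lower, against 54.6%. The smallest p-values of the full fit belonged to genes picked here after their values were seen. Arrdc3, an arrestin-like protein, read 2121 and 638 on the control arrays, Ddit4, a stress-induced inhibitor of mTORC1, 4762 and 1480, and Txnip, an arrestin relative that responds to glucose, 5777 and 1499. All 3 were lower on the array numbered 2 in every pair.

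**Figure D5:**
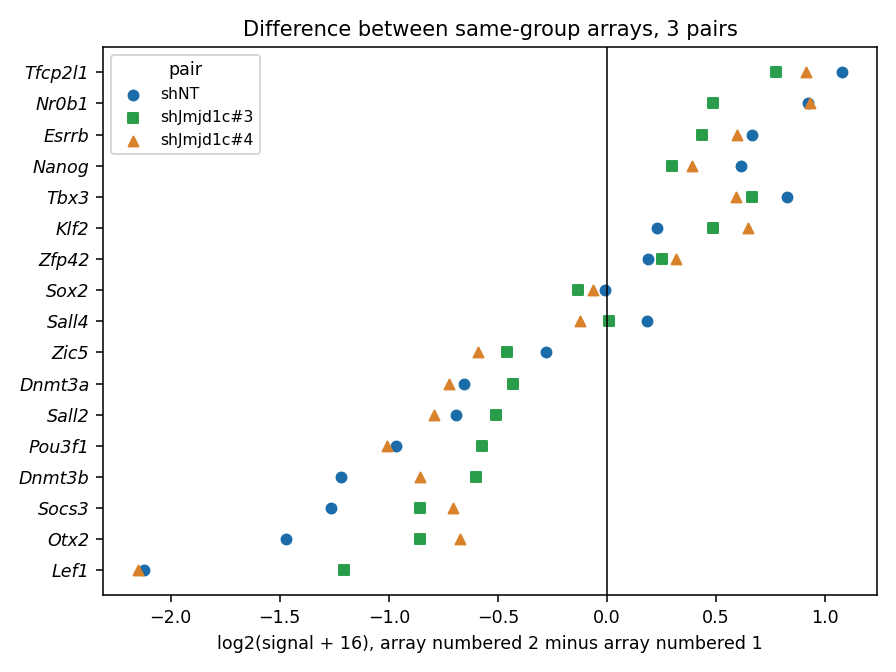
Difference in log2(signal + 16), array numbered 2 minus array numbered 1 of the same group, for 17 genes in the shNT (circles), shJmjd1c#3 (squares) and shJmjd1c#4 (triangles) pairs, with a line at 0. Tfcp2l1 to Zfp42 lie right of the line in all 3 pairs and Zic5 to Lef1 left of it, while Sox2 and Sall4 lie near 0.

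Of 48 ribosomal protein genes tested 19 were higher and 1, Rps27, lower on arrays numbered 2 by limma. Over all genes tested 2.33% were higher and 2.37% lower. With quantile normalization, however, 0 ribosomal protein genes were higher and 1 lower. Signs of RNA quality moved with the number. The Gapdh control probe set at the 3′ end read 1.38 and 1.68 times the one at the 5′ end on the control arrays, 1.30 and 1.47 on the sh3 arrays and 1.33 and 1.49 on the sh4 arrays, higher on the array numbered 2 in all 3 pairs. For Actb these values were 2.70 and 2.77, 2.26 and 2.40, and 2.80 and 2.81, again higher on number 2. Their part in the differences by number was not tested.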

How the data were processed

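RNA of 6 samples, 2 in each of 3 groups, was measured on Affymetrix whole-genome mouse arrays. The deposited values are linear MAS5 signal intensities of 45101 probe sets, per the submitters' processing notes, which name no software version. The 64 control probe sets were left out of ranks. GEO's annotation of the platform gave 1 symbol for 34945 probe sets, several for 932 and none for 9160, and 34754 matched a current gene by Entrez number. Each of the 18193 genes was read from its brightest probe set by mean of the control arrays. For the spread, log2(signal + 16) was computed, with a filter at the 40th percentile of the mean.

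Differences by replicate number were fitted with limma 3.58.1 in R 4.3.3 over all 6 arrays, with group as a term and a variance trend, adjusted by Benjamini-Hochberg at 0.05, with each gene's brightest probe set by mean of the 6 arrays. On simulated data with 200 changed genes among 12682, the fit recovered 84.8% of 2-fold and 58.1% of 1.5-fold changes, with 4.37% of calls false. The simulated noise was normal and independent, and its size depended only on a smooth trend along signal. Genes of like signal therefore did not differ in variance, and these shares do not give the false share among the calls on the real arrays. Promoter windows were taken from RefSeq (GRCm38.p6) by symbol for 14452 genes.

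The text names the 15 brightest genes, members of the gene lists with every member of a related set considered, and the 10 largest differences each way, and passes over RIKEN and Gm symbols. The members, lists and rules were chosen with earlier results of these data known. The labels call the arrays of a group biological duplicates without naming separate cultures, so p-values measure only the spread between these samples, which may be technical. Alternatives covered the pseudocount, filters, percentiles, probe set choice, normalization and leaving out arrays or pairs.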

Additional observations from a re-analysis of the deposited data

How the results depend on the processing

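The count of bright genes, 2707, became 1632 with the median over a gene's probe sets, 5429 at the 80th percentile and 1266 at the 95th, and lay between 2884 and 2916 with 1 control array left out. The near-background count, 4619, became 2781 at the 30th percentile. The 390 genes that differed at least 2-fold between the control arrays became 629 with a pseudocount of 1, 127 with 64, 1786 with no filter and 126 with a filter at the 60th percentile. The 596 genes called by replicate number with limma became 381 with no filter, 421 with quantile normalization and 0 with no variance trend, where 2164 had an unadjusted p under 0.05. Leaving out 1 pair gave 464 (without sh3) to 1187 (without shNT), from a single residual degree of freedom. The median promoter CpG ratio of near-background genes, 0.28, was 0.27 at the 30th percentile, 0.32 at the 50th and 0.32 with the median over probe sets. The cause of these shifts was not tested, apart from thresholds and filters that change which genes are counted. Some differences that did not pass the test changed sign, among them that of Pou5f1, and in the control pair the median of translation factors went from 0.32 to -0.01 and that of Wnt pathway genes from 0.04 to -0.08 with quantile normalization. No paired analysis was possible because no groups were compared with each other, and the fit of the replicate number already compared arrays within each group. Signals near background and the number of arrays limit the precision, and levels are not comparable between probe sets beyond the ratios given.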
